A study of Mus musculus with 8 samples.

Results

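The Zfp36, Btg and Tob genes encode proteins that speed the removal of mRNAs, and 8 of them were followed by name: Zfp36, Zfp36l1, Zfp36l2, Btg1, Btg2, Btg3, Tob1 and Tob2. Of these 8, 7 had at least 1 probe set annotated to that gene alone, out of 22180 genes with such a probe set. Where a gene had several, the probe set of highest mean over all arrays stood for it. Btg3 had none: both of its probe sets are also annotated to Gm7334, listed as a transcribed pseudogene, and their values are given apart. Treated cultures were held in 55 mM KCl for 4 h (4 arrays), and the other cultures were untreated (4 arrays). All 8 came from C57BL/6J mouse hippocampal neurons, dissected at E18.5 and kept for 11 days in vitro with AraC, a drug that kills dividing cells. By the labels no mouse number is used for more than 1 array, and they do not say whether a culture pooled littermates or whether arrays of a group came from separate dissections, so the p-values measure the spread between these arrays. Raised potassium depolarises neurons and lets calcium enter, and is a common stand-in for electrical activity.

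ZFP36 proteins (ZFP36 is also called tristetraprolin) carry a pair of CCCH zinc fingers that bind AU-rich stretches near the ends of short-lived mRNAs, among them those of cytokines and immediate-early genes. They bring in the CCR4-NOT complex, which shortens the poly(A) tail and so starts decay. BTG and TOB proteins share an N-terminal domain that binds the catalytic subunits of the same complex, and TOB proteins also bind the cytoplasmic poly(A)-binding protein. Btg2, known too as PC3 or TIS21, was described as an early-response gene and is known in the developing brain for marking progenitors that turn to making neurons.

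The arrays reported log2 probe set values that the authors had made with RMA, which puts all arrays on a common scale and compresses differences between dim probe sets. A low value is thus no proof of absence, and values of different genes cannot be ranked against each other. Array medians lay between 4.44 and 4.48. Of 9 activity genes used as a check, 6 were higher after KCl at a limma adjusted p under 0.05 over all genes. The other 3 did not pass, and 1.34% of all genes passed upward. The 9 averaged 9.20 to 9.50 in KCl arrays, and 7.06, 6.40, 5.51 and 6.38 in untreated arrays numbered 1 to 4. Neuronal markers averaged 9.65 to 10.27 in KCl arrays and 9.62 to 10.25 in untreated arrays over 10 genes, and astrocyte markers averaged 8.71 to 9.20 in KCl arrays and 8.73 to 9.51 in untreated arrays over 8 genes. The 8 microglial markers averaged 4.17 to 4.48 over all arrays, which does not settle whether microglia were present. Whole-culture RNA cannot tell fewer cells of a type from less RNA per cell.

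The windows before the start sites of the 3 genes that rose (Btg2, Btg1 and Tob2) are shown because cyclic AMP response elements (CREs), the sites of the activity-regulated factor CREB, are a textbook feature of depolarisation-responsive promoters. Each line gives the 250 bases before the annotated start in RefSeq on build GRCm38.p6, 5′ to 3′ on the gene's strand. Capitals mark matches to the short CRE core TGACG on either strand, a pair of which overlap in Btg2 to form the full palindrome.
Btg2, chr1:134079156-134079405, minus strand: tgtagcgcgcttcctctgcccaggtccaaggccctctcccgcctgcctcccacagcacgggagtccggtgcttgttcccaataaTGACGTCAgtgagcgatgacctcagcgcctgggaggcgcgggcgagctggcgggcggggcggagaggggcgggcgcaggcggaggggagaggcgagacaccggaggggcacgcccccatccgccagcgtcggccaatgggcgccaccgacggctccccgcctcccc
Btg1, chr10:96616751-96617000, plus strand: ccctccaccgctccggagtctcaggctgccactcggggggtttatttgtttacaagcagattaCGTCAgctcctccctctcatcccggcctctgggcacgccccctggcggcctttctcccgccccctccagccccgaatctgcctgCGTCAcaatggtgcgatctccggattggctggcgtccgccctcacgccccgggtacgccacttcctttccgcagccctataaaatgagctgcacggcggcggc
Tob2, chr15:81858327-81858576, minus strand: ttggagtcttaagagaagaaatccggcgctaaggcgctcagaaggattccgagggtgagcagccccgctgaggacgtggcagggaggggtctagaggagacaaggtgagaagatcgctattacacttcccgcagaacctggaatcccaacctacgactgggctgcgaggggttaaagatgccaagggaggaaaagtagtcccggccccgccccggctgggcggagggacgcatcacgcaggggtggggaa

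Btg2 held 1 full CRE, TGACGTCA, beginning 166 bases before the start. This full element occurs in 1.55% of the 32851 promoter windows of the same length in the RefSeq table. Btg1 held the short core at 187 and 103 bases before the start, and Tob2 held none in this window. Among the members that are not printed, Tob1 had 1 short core at 96 bases, while Zfp36, Zfp36l1 and both listed windows of Btg3 had none. The short core is found in 17.8% of all windows. Zfp36 held 1 CArG box, the site of serum response factor, at 58 bases (1.47% of windows), and Zfp36l1 held 1 match to the AP-1 site TGANTCA at 129 bases (6.75% of windows). The motifs were searched on both strands. The table has no entry for Zfp36l2.

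Among the 7 measured genes, Btg1, Btg2 and Tob2 rose about 3-fold each after 4 h of KCl, and the other 4 did not pass the test. The 3 that rose make up the genes of this set whose KCl arrays all lay above the untreated arrays. The threshold was a limma adjusted p under 0.05 over all 22180 genes, and 1.34% of all genes passed it in the upward direction. Groups separated completely, with KCl higher, for 3.83% of all genes. With the array number as a block, which removes level differences that same-numbered arrays share, 5 of the 7 passed upward, against 2.43% of all genes. Zfp36 and Zfp36l2 joined the 3. No label says what a number shares, and the pairing was read from these same arrays. The median log2 change was 0.77 over the 7 genes and -0.01 over all genes. The members were chosen with earlier results of these data known, so these counts are a description.

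**Figure D1:**
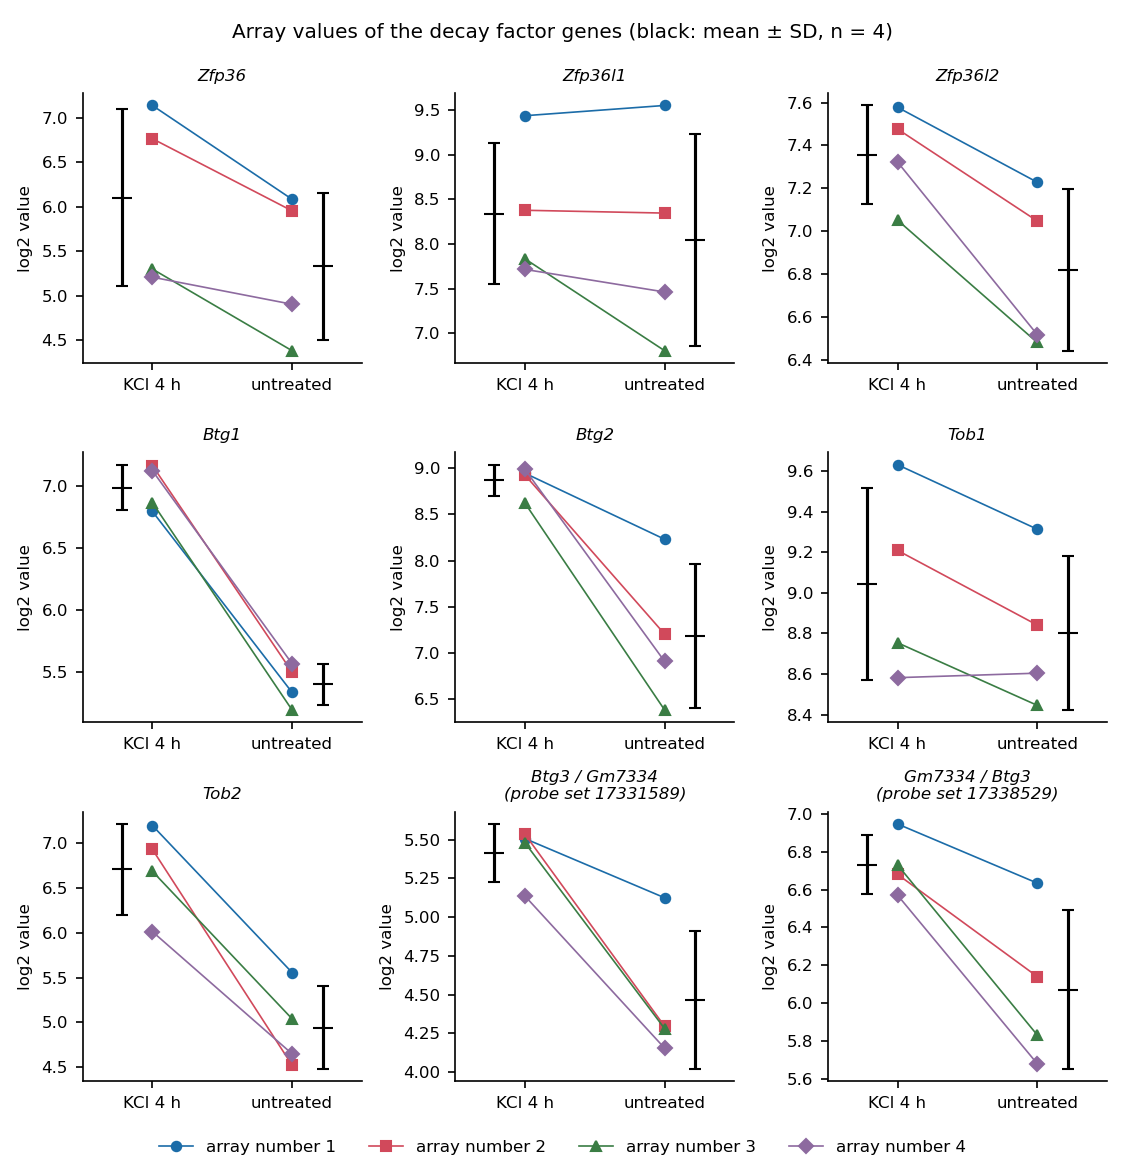
Log2 values (vertical axis, a scale of its own in each panel) of the 7 measured genes and of the 2 probe sets shared by Btg3 and Gm7334, in KCl arrays (left) and untreated arrays (right), with lines joining arrays of the same number and black bars for the mean and SD of 4 arrays. Btg1, Btg2 and Tob2 show KCl arrays wholly above untreated ones, whereas Zfp36, Zfp36l1 and Tob1 are spread mainly by array number.

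Btg1, a BTG protein best known for holding cells in quiescence, gave the tightest response. On arrays numbered 1 to 4 it stood at 6.80, 7.17, 6.87 and 7.13 in KCl cultures, against 5.34, 5.50, 5.20 and 5.57 in untreated cultures. The lowest KCl value lay more than 1 log2 unit above the highest untreated value, 5.57. Its mean was 6.99 ± 0.18 in KCl cultures and 5.40 ± 0.17 in untreated cultures (SD, n = 4 each). The log2 change was 1.59 (SE 0.126, limma adjusted p = 0.00094), a 3.01-fold rise, and the 4 same-numbered pairs differed by 1.46 to 1.67. Btg1 passed each time 1 of the 8 arrays was dropped, with adjusted p of 0.0027 to 0.00657. Probe sets named Btg1b and Btg1c, looked at after the values were seen because their names mark them as relatives, stayed at 3.90 to 4.27 and 3.59 to 3.81 in KCl cultures and at 3.89 to 4.16 and 3.56 to 3.72 in untreated cultures.

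Btg2 rose to a nearly common level in KCl cultures although its untreated level varied. Its values were 8.95, 8.93, 8.62 and 8.99 in KCl cultures, against 8.23, 7.20, 6.38 and 6.91 in untreated cultures. The KCl arrays spanned 0.36 log2 units and the untreated arrays 1.85, with the untreated array numbered 1 the highest of its group. The mean was 8.87 ± 0.17 in KCl cultures and 7.18 ± 0.78 in untreated cultures (SD, n = 4 each). Its log2 change of 1.69 (SE 0.341, a 3.22-fold rise) passed narrowly, at a limma adjusted p of 0.0438. The pairs differed by 0.71, 1.72, 2.24 and 2.08, the smallest being that of the arrays numbered 1. The activity genes used as a check also averaged highest, among untreated arrays, on that numbered 1 (7.06, against 5.51 to 6.40).

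The call of Btg2 depended on the fit more than that of Btg1. Dropping 1 array at a time, it passed only without the untreated array numbered 1 (log2 change 2.04, adjusted p = 0.00395), and missed in the other 7, with adjusted p of up to 0.123. The log2 change in those 8 fits was 1.42 to 2.04. It also missed when quantile normalization was repeated (adjusted p = 0.0604) and over all 34472 probe sets (0.055). With the array number as a block, its adjusted p was 0.0192.

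Tob2, one of 2 TOB genes known as brakes on cell proliferation, changed by about as much as Btg2. It stood at 7.20, 6.93, 6.69 and 6.01 in KCl cultures, against 5.56, 4.52, 5.04 and 4.65 in untreated cultures. Untreated arrays numbered 2 and 4 lay near the array medians of 4.44 to 4.48, among dim values where RMA compresses differences. The sizes of the 2 changes are thus not closely comparable. The groups did not overlap, the nearest arrays being KCl number 4 and untreated number 1. Means were 6.71 ± 0.51 in KCl cultures and 4.94 ± 0.46 in untreated cultures (SD, n = 4 each), and the log2 change was 1.76 (SE 0.297, limma adjusted p = 0.0225), a 3.39-fold rise. The 4 pairs differed by 1.36 to 2.41. When single arrays were dropped Tob2 passed 3 times of 8, and it missed without KCl number 2 (adjusted p = 0.0607) or 3 (0.071) or untreated number 2 (0.0679), 3 (0.0635) or 4 (0.0619). The changes of Tob2, Btg2 and Btg1 ranked 59th, 66th and 83rd from the top of all 22180 genes, but their order turned when arrays were dropped: without both arrays numbered 1, Btg2 changed by 2.01 and Tob2 by 1.80 on the log2 scale.

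Tob1, the other TOB gene, stood at 9.63, 9.21, 8.75 and 8.58 in KCl cultures, against 9.31, 8.84, 8.45 and 8.60 in untreated cultures. The groups overlapped over most of their range. The log2 change was 0.24 (95% confidence interval -0.36 to 0.84, limma adjusted p = 0.842), and 3 of 4 pairs were higher after KCl, by 0.31 to 0.37, while the pair numbered 4 differed by -0.02. A change of 0.84 log2 units is thus within the interval, and the arrays do not show that Tob1 was unaffected.

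Whether related genes changed unequally was tested within arrays, as the difference between their log2 values, with an exact two-sided permutation test over the 8 arrays. The smallest p that 4 arrays against 4 allow is 0.0286, and 5 pairs were compared, so that a single pair could not pass after Benjamini-Hochberg adjustment. The change of Tob2 exceeded that of Tob1 by 1.52 log2 units, and by 1.32 to 2.04 in 4 of 4 same-numbered pairs. That difference reached the smallest possible p, 0.0286 by the exact permutation test (0.143 adjusted over the 5 pairs). Btg2 and Btg1 differed in their change by 0.10, with pair values of -0.75 to 0.57 (exact permutation p = 0.914, adjusted 0.914). Within the Zfp36 group, Zfp36 exceeded Zfp36l1 by 0.47 (exact permutation p = 0.257, adjusted 0.643) and Zfp36l2 by 0.23 (0.629, adjusted 0.821). Zfp36l2 exceeded Zfp36l1 by 0.24 (exact permutation p = 0.657, adjusted 0.821).

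In each same-numbered pair Zfp36 was higher with KCl, but its level varied more between array numbers than between conditions. Its values were 7.14, 6.77, 5.30 and 5.21 in KCl cultures, against 6.08, 5.95, 4.38 and 4.90 in untreated cultures. The untreated arrays numbered 1 and 2 lay above the KCl arrays numbered 3 and 4, so the groups overlapped. The pairs differed by 1.06, 0.81, 0.92 and 0.30. Without regard to number the log2 change of 0.77 (a 1.71-fold difference) had an SE of 0.546 and did not pass (limma adjusted p = 0.686). With the array number as a block the SE was 0.141 and Zfp36 passed (adjusted p = 0.0343). Repeated without both arrays of 1 number, the blocked fit gave log2 changes of 0.68 to 0.93, and Zfp36 passed without the pair numbered 4 (adjusted p = 0.0362) but not without pair 1 (0.102), 2 (0.106) or 3 (0.149). A higher KCl value in all 4 pairs was seen for 11% of all genes, and for 5 of the 7 members.

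Zfp36l2, a paralog that also binds AU-rich mRNAs, had a smaller difference in the same direction in every pair. Values were 7.58, 7.48, 7.05 and 7.32 in KCl cultures, against 7.23, 7.05, 6.48 and 6.52 in untreated cultures. Only the untreated array numbered 1 reached into the KCl range. The log2 change was 0.54 (95% confidence interval 0.09 to 0.99, SE 0.198, limma adjusted p = 0.271), a 1.45-fold difference, and the pairs differed by 0.35 to 0.80. With the array number as a block, Zfp36l2 passed by a thin margin (SE 0.111, adjusted p = 0.0495), and it missed without any 1 pair (0.0832 to 0.183) and over all probe sets (0.0587).

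Zfp36l1, the third paralog, did not pass in either fit. Its values were 9.44, 8.38, 7.83 and 7.72 in KCl cultures, against 9.55, 8.35, 6.81 and 7.46 in untreated cultures, and the untreated array numbered 1 was the highest of all 8. The log2 change of 0.30 had a 95% confidence interval of -1.07 to 1.67 (limma adjusted p = 0.938, and 0.523 with the block). Pair differences were -0.11, 0.03, 1.03 and 0.25, so that pair 3 supplied most of the mean. Left without untreated number 3 or KCl number 1, the log2 change turned to -0.11 or -0.07. A second, dimmer Zfp36l1 probe set (17276814) stood at 4.88 to 5.18 in KCl cultures and 5.00 to 5.17 in untreated cultures.

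**Figure D2:**
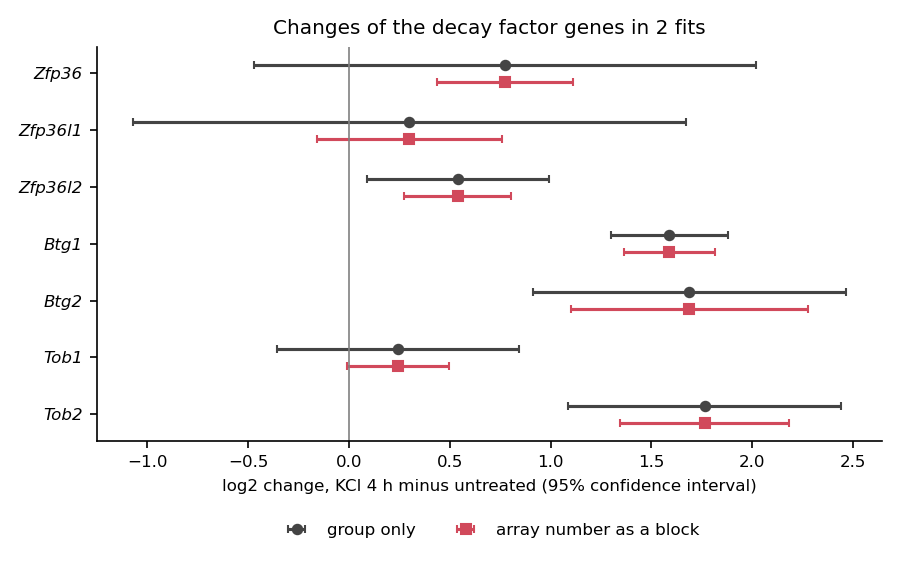
Log2 change (KCl 4 h minus untreated, horizontal axis) of the 7 measured genes with 95% confidence intervals, from the fit on group alone (circles) and from the fit with the array number as a block (squares). Btg1, Btg2 and Tob2 lie at 1.59, 1.69 and 1.76, and in this balanced design the block alters only the intervals. That of Zfp36 narrows from -0.47 to 2.02 without the block to 0.44 to 1.11 with it.

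Btg3, which encodes a further CCR4-NOT-binding BTG protein, could not be separated from Gm7334. The probe set 17331589, annotated to both, stood at 5.51, 5.54, 5.48 and 5.14 in KCl cultures, against 5.13, 4.30, 4.28 and 4.15 in untreated cultures. KCl arrays lay just above the highest untreated array, that numbered 1. The probe set 17338529, also annotated to both, stood at 6.95, 6.68, 6.73 and 6.57 in KCl cultures, against 6.63, 6.14, 5.83 and 5.68 in untreated cultures, where array number 1 reached into the KCl range. Both were higher after KCl in 4 of 4 pairs. In a fit over all 34472 probe sets, added after the values were seen, their log2 changes were 0.95 (limma adjusted p = 0.0791) and 0.66 (0.198), and 0.978% of all probe sets passed upward. With the array number as a block, the first passed (adjusted p = 0.0386) and the second did not (0.0567), against 1.6% of all probe sets. The signal cannot be given to either gene.

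The level of several members moved with the array number in both groups. The number accounted for 96.8% of the within-group variance of Zfp36, 95.6% of that of Tob1, 93.6% of that of Zfp36l1, 91.8% of that of Btg1 and 89.7% of that of Zfp36l2. The values for Tob2 and Btg2 were 78.8% and 63%, and the median over all genes was 61.3%. With so few arrays per number, this share is large even where same-numbered arrays have nothing in common. The value of Btg2 thus shows little more than that of a typical gene. Btg1 had little variance to share in either group, with group ranges of 0.37 in KCl and 0.37 in untreated cultures. Btg2 was as narrow in KCl cultures (0.36) but not in untreated cultures (1.85). Zfp36 ranged over 1.93 in KCl and 1.70 in untreated cultures, and Zfp36l1 over 1.72 in KCl and 2.75 in untreated cultures.

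**Figure D3:**
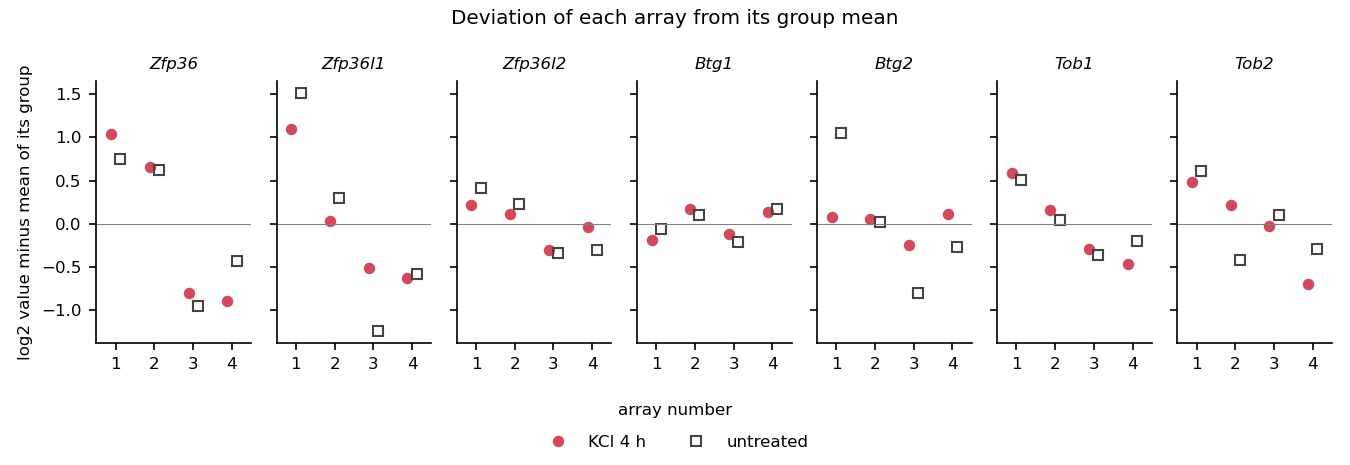
Deviation of each array's log2 value from the mean of its own group (vertical axis) by array number (horizontal axis) for the 7 measured genes, with filled circles for KCl and open squares for untreated arrays. Both groups of Zfp36 lie above 0 for numbers 1 and 2 and below it for 3 and 4, while Btg1 stays within about 0.2 of 0 throughout.

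Marker lists differed by array number too, some split in the same way as Zfp36 and others not. The endothelial list averaged 4.57 and 4.66 on KCl arrays numbered 1 and 2 and 4.23 and 4.24 on those numbered 3 and 4, against 4.47, 4.58, 4.17 and 4.15 on untreated arrays 1 to 4. That difference came from 1 of its 6 genes: Kdr, a VEGF receptor, stood at 7.91, 8.34, 5.62 and 5.18 in KCl cultures and at 7.76, 8.17, 5.42 and 5.48 in untreated cultures, while the other 5, Cldn5, Pecam1, Flt1, Cdh5 and Tek, stood at 3.56 to 4.64 throughout. The fibroblast and meningeal list averaged 4.74, 4.71, 4.42 and 4.45 in KCl cultures and 4.72, 4.66, 4.32 and 4.35 in untreated cultures. The astrocyte list averaged 9.20, 8.91, 8.87 and 8.71 in KCl cultures and 9.51, 9.06, 8.88 and 8.73 in untreated cultures. Progenitor and cycling markers averaged 6.56, 6.85, 6.76 and 6.00 in KCl cultures and 6.33, 6.52, 5.96 and 5.69 in untreated cultures. The neuronal list went the other way, with 9.65, 9.86, 10.27 and 10.09 in KCl cultures and 9.62, 9.93, 10.25 and 10.10 in untreated cultures. The part of these cell types in the levels of Zfp36, Zfp36l1 and Tob1 was not tested. Between conditions, 1 of the 8 astrocyte markers passed, the glutamate transporter Slc1a2, which fell to 0.583 of its untreated level (limma adjusted p = 0.0479, but 0.062 with the block). Slc1a2 missed the threshold without both arrays numbered 1, and in 7 of 8 fits when single arrays were dropped. No gene of the other marker lists passed in the fit on group alone. With the block Gad2, a GABA-synthesis enzyme, was lower (limma adjusted p = 0.0458) and Pax6, a progenitor factor, was higher (0.0461) after KCl. The progenitor and cycling list averaged higher with KCl in each same-numbered pair, though the groups overlapped. Its median log2 change was 0.45 over 6 genes, against -0.10 to 0.10 for the other marker lists and -0.01 for all genes. The source of that difference was not tested.

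The genes whose 8-array profiles lay nearest to those of the 3 that rose were found by the root-mean-square difference between the deviations from each gene's own mean. Nearest to Btg1 were Cdk11b, a cyclin-dependent kinase (difference 0.0922 log2 units), the mitochondrial phosphate carrier Slc25a3 (0.0963) and the telomere protein gene Acd (0.115), against a median of 0.843 over all genes. Cdk11b and Slc25a3 had log2 changes of 1.60 and 1.55. Since the genes were picked for likeness over these same arrays, their changes are a description. Nearest to Btg2 were Aff1, a subunit of elongation complexes (0.223), the peptide transporter Slc15a2 (0.234) and the clock gene Per1 (0.264), with log2 changes of 1.79, 1.47 and 1.37. Of these, Slc15a2 and Per1 did not pass the threshold (limma adjusted p = 0.112 and 0.179). Nearest to Tob2 were the immediate-early gene Ier2 (0.291), the microRNA gene Mir1938 (0.331) and the glutamine transporter Slc38a2 (0.341). Ier2 and Mir1938 had log2 changes of 2.03 and 1.88.

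Lists of the machinery that the members recruit were read from the same fit. Their counts past the threshold are small and no set test was run, so they are a description. Of 10 measured CCR4-NOT genes, none rose, 1 fell and 9 did not pass, with a median log2 change of -0.05 against -0.01 for all genes. In the downward direction 1.02% of all genes passed. The 1 was Cnot11, a subunit of the complex, at 5.55, 5.76, 6.16 and 5.78 in KCl cultures against 6.37, 6.78, 6.90 and 6.45 in untreated cultures. The groups did not overlap, and Cnot11 was lower in 4 of 4 pairs. It fell to 0.568 of its untreated level (limma adjusted p = 0.0452), a call kept in 1 of 8 fits when single arrays were dropped (adjusted p up to 0.124) and lost with array medians centred (0.0513), quantile normalization repeated (0.0621), trended and robust eBayes (0.0838) or without both arrays numbered 1 (0.0644). With the block its adjusted p was 0.0124.

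Other deadenylases and poly(A)-binding proteins (11 measured, median log2 change 0.02) and the exosome with its helpers (15 measured, median -0.17) had no gene past the threshold. The smallest p-values of the first list were those of Pabpc1, the main cytoplasmic poly(A)-binding protein (log2 change 0.60, limma adjusted p = 0.112), and the circadian gene Noct (0.61, 0.393). Those of the second were Ttc37, a scaffold of the SKI complex that feeds the exosome (-0.48, 0.106), and the exosome subunit Exosc7 (-0.43, 0.348). Of 16 decapping genes, 1 fell: Dcp1a, an activator of the decapping enzyme, to 0.536 of its untreated level (adjusted p = 0.0419, but 0.0598 with the block, 0.0506 with array medians centred, 0.057 with trended and robust eBayes, and past it in 2 of 8 fits when single arrays were dropped). With the block none of the 16 fell and 1 rose: Pnrc1, a coactivator that also binds the decapping complex, with a log2 change of 0.79 (adjusted p = 0.0353, and 0.168 on group alone) and a higher KCl value in 4 of 4 pairs. The median log2 change of that list was -0.04.

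**Figure D4:**
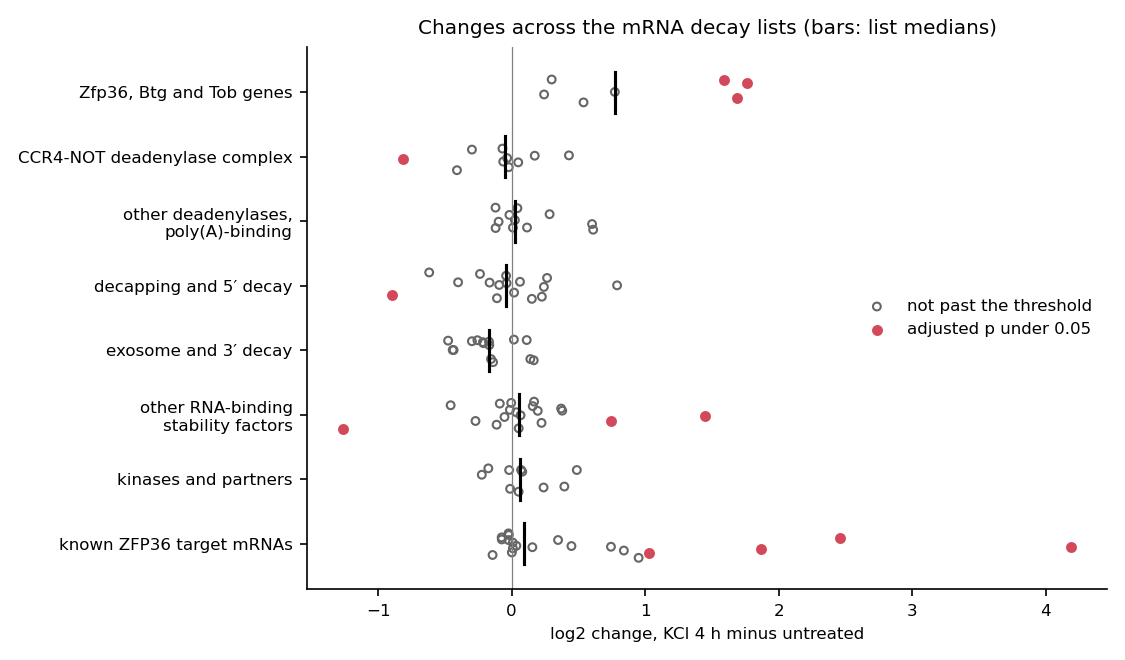
Log2 change (KCl 4 h minus untreated, horizontal axis) of the 7 measured members and of each gene on 7 lists of the mRNA decay pathway, with filled points for an adjusted p under 0.05 and vertical bars for list medians; the vertical scatter within a row carries no information. The medians of the 7 lists lie between -0.17 and 0.10, and that of the members at 0.77. Of the filled points, those of Btg2, Tob2, Cnot11, Dcp1a, Tia1, Ptgs2 and Ier3 lose their calls in at least 1 fit with a single array dropped.

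Of 19 measured genes for other RNA-binding proteins of mRNA stability, 2 rose, 1 fell and 16 did not pass (median log2 change 0.05), where 1.34% of all genes passed upward and 1.02% downward. Zc3h12c, a relative of the endonuclease regnase-1, stood at 8.88, 8.35, 8.93 and 8.73 in KCl cultures against 7.61, 7.17, 7.27 and 7.05 in untreated cultures, a 2.73-fold rise (limma adjusted p = 0.00511). Rc3h1, which encodes roquin-1, a repressor of mRNAs with stem-loop decay elements, rose 1.67-fold (adjusted p = 0.00889). Both passed whichever single array was dropped. Tia1, a stress-granule protein that binds U-rich and AU-rich mRNA, fell to 0.418 of its untreated level (adjusted p = 0.0191, and up to 0.0681 when single arrays were dropped, passing 5 times of 8).

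None of 10 kinases and partners that act on ZFP36 or BTG and TOB proteins passed (median log2 change 0.06). The smallest p-values were those of Mapkapk2, the kinase that restrains ZFP36 activity (log2 change 0.49, limma adjusted p = 0.507), and the arginine methyltransferase Prmt5 (-0.17, 0.554). Of 20 mRNAs known as ZFP36 targets, mostly from immune cells, 4 rose, none fell and 16 did not pass, where 1.34% of all genes passed upward. Their median log2 change was 0.10. The 4 were Fos, Ptgs2, the kinase Pim1 (3.64-fold, adjusted p = 0.00514) and the stress gene Ier3 (2.03-fold, 0.046, but past the threshold in 2 of 8 fits when single arrays were dropped). Averaged over all its probe sets, Pim1 had a log2 change of 1.04, against 1.86 for the brightest. Fos (adjusted p = 0.00054) and Ptgs2 (0.0146, lost without KCl number 3) are also known as activity-induced genes, and whether decay had any part in their level was not measured. With the block, 7 of the 20 passed upward, against 2.43% of all genes.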

How the data were processed

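RNA of 8 mouse hippocampal cultures was measured on Affymetrix arrays, and titles put 4 arrays in each group. The authors deposited log2 values per probe set, made with RMA; Partek is named too, per the submitters' processing notes, with no version or settings and no word on batch adjustment. Scanner files were not used here, so signal over background was not assessed.

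Of 34472 probe sets, 23521 had 1 gene symbol in the platform annotation, 1814 had several and 9137 were unnamed here. For 1082 genes with several probe sets the brightest was kept, leaving 22180 genes, of which 21994 had an identifier in the RefSeq table. Promoter windows came from RefSeq (GRCm38.p6), which may not be the build behind the array, so no probe set coordinates are given.

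Groups were compared across all genes with limma 3.58.1 in R 4.3.3 (lmFit, eBayes, two-sided, group as the only term), with Benjamini-Hochberg adjustment over all genes at 0.05. The titles number arrays 1 to 4 in each group, while the mouse numbers differ. Deviations from group means correlated at 0.638, 0.234, 0.409 and 0.368 for same-numbered arrays across genes (other pairs up to 0.302). The value for number 2 lay below that maximum, and no label says what a number shares. The numbers were still taken as pairing for a second, blocked fit. The calls of Zfp36 and Zfp36l2 thus rest on a pairing read from these same arrays. The code was run on simulated data before use. Of 7 pairs of related genes planned for the permutation test, 5 could be formed, since Btg3 had no probe set of its own.

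The members, lists and tests were chosen with earlier results of these data known. The rule named all members, the 3 nearest profiles of each that passed, and from each list the genes past the threshold or else the 2 of smallest p. Alternatives were the block, normalization, centring, dim-gene, probe set, variance and weighting choices, a 1.5-fold minimum and leaving out arrays. Fits over all probe sets, and blocked fits without 1 number, were added once the data had been seen. Python 3.11.15 with matplotlib 3.10.9 drew the plots.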

Additional observations from a re-analysis of the deposited data

Results flagged for a closer look

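The KCl array numbered 3 had a Btg2 value of 8.62, apart from the other 3 KCl arrays at 8.93 to 8.99; the gap, as a share of the group's range (0.835), was just past Dixon's critical value for 4 samples. It was the only one marked of 14 groups examined (7 genes in 2 groups), and chance marks about 1 group in 20. Without that array the log2 change of Btg2 was 1.77 (limma adjusted p = 0.099).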

How the results depend on the processing

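Btg1 passed in every alternative run. Across alternatives, no member that passed changed direction. The total of 524 genes past the threshold became 985 with the replicate block, 957 with the block over all probe sets, 129 with no moderation, 41 with a minimum change of 1.5-fold and 186 to 501 with 1 array left out, and the members past it numbered 3, then 5, 4, 1, 1 and 1 to 3 in the same order. With the block Zfp36 (log2 change 0.77) and Zfp36l2 (0.54) were gained, and over all probe sets Zfp36 alone was. Btg2 was lost with quantile normalization repeated (1.65), with no moderation, with the 1.5-fold minimum and over all probe sets (1.69 each), and in the blocked fit without both arrays numbered 2 (1.68), 3 (1.51) or 4 (1.56). Tob2 was lost with no moderation and with the 1.5-fold minimum (1.76 each). Blocked, Zfp36 also passed without both arrays numbered 4 (0.93). With 1 array left out, log2 changes were 1.42 to 2.04 for Btg2, 1.60 to 1.99 for Tob2 and -0.11 to 0.80 for Zfp36l1. Decay-list genes past the threshold numbered 9, and 4 to 9 with 1 array left out; marker genes numbered 1, then 2 with the block, 0 without both arrays numbered 1, and 0 to 1 with 1 array left out. The causes of these shifts were not tested, beyond the smaller number of arrays where some were left out. In this balanced design the replicate block cannot alter a mean, so the differences between related genes stayed as they were (1.52 for Tob2 minus Tob1). Within same-numbered pairs, 4 pairs are too few for an exact test to pass. The block changed no other member's call. Precision is limited by 4 arrays a group, and signal over background could not be read from these values.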
